A study of Mus musculus with 18 samples.

Results

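The angiopoietin and Tie system is described here through 5 genes: the ligand genes Angpt1 and Angpt2, the receptor genes Tek (which encodes Tie2) and Tie1, and Ptprb, which encodes the receptor-type phosphatase VE-PTP. They were taken by gene symbol from the deposited Brain, Retina and Choroid tables. All 5 were among the 13957 genes of the Brain table and the 7569 genes of the Choroid table. Of the 12827 genes of the Retina table, 4 were members, and Angpt1 was not analysed in retina. The tables list genes that reached the deposited minimum of 50 raw counts in every library of at least 1 fraction. In Choroid, Angpt1 was listed through its Input libraries alone and Angpt2 through its Positive libraries alone, so those 2 rows had to differ between the fractions to some degree. The other 12 combinations of gene and tissue reached the minimum in both fractions.

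RNA came from brain, retina and choroid of Cdh5(PAC)-cre/ERT2+; NuTRAP+ mice induced with tamoxifen. In these mice a Cre recombinase driven by the Cdh5 promoter switches on a GFP-tagged ribosomal protein in endothelial cells, so every group, Input included, carries both transgenes. The Input fraction was a 100 uL portion of the cleared homogenate of the whole tissue. The Positive fraction was the RNA bound to ribosomes that an anti-GFP antibody pulled down from the rest of it. Each of the 6 groups (3 tissues, 2 fractions) had 3 libraries, given in the labels as biological replicates. The age and number of the animals were not given in the sources used here, and the p-values reflect the spread among libraries, part of which may be technical. In such bulk RNA, fewer cells of a type and less RNA per cell cannot be told apart.

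Tie2 is a receptor tyrosine kinase of endothelial cells. Angiopoietin 1, made mainly by cells around the vessel such as pericytes, activates it and supports a quiescent, tight endothelium. Angiopoietin 2, stored and released by endothelial cells, acts as a weak or context-dependent agonist that can oppose angiopoietin 1. Tie1 has no well-established ligand of its own among the classical angiopoietins and modulates Tie2 by forming complexes with it, while VE-PTP removes phosphate from Tie2 and from the VE-cadherin complex. Downstream of active Tie2, the kinase Akt keeps the factor Foxo1 out of the nucleus, and Foxo1 in turn drives Angpt2.

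On GRCm38, the assembly that mm10 names, GENCODE M21 places Tek at chr4:94739289-94874976 on the plus strand and Tie1 at chr4:118471191-118490061 on the minus strand. Angpt1 lies at chr15:42424723-42676977 and Angpt2 at chr8:18690263-18741562, both on the minus strand, and Ptprb at chr10:116275523-116389535 on the plus strand. All 5 are protein-coding genes. RefSeq promoter windows on GRCm38.p6 were held for 2 members, Tek and Tie1, and were not used for Angpt1, Angpt2 and Ptprb. Each window runs from 250 bases before to 50 after an annotated start. That start is 94739289 for Tek, as in GENCODE above, and 118489849 for Tie1, as in RefSeq and unlike GENCODE. The windows are chr4:94739039-94739338 on the plus strand for Tek and chr4:118489800-118490099 on the minus strand for Tie1, each written 5′ to 3′ on the gene's strand. They are shown because the 2 receptor genes had near-equal levels in brain and unequal ones in choroid, and because factors of the ETS family are described below. Capitals mark the ETS core GGAA, or TTCC where it lies on the other strand.
Tek: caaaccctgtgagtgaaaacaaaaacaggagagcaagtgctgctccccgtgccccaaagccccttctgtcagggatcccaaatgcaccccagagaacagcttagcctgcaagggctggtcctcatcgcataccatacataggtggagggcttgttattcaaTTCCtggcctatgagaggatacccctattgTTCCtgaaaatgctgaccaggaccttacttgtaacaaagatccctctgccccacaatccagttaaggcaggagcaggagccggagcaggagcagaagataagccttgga
Tie1: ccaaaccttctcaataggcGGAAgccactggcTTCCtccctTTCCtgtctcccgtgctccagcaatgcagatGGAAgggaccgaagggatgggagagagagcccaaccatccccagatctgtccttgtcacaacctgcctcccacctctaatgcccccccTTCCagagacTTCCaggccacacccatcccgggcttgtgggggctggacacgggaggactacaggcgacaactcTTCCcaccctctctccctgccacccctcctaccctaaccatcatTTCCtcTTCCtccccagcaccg
The Tek window held 2 ETS cores, both on the other strand, and 84.6% of 32851 mouse promoter windows of this length held at least as many. The Tie1 window held 9, 2 on the gene's strand and 7 on the other, and 1.59% of windows held at least as many. At least 1 ETS core was present in 95.98% of all windows, with a median of 3. GATA (TATC on the other strand) occurred 2 times in Tek and 0 times in Tie1, against 57.9% of windows with a match, and none of these overlapped an ETS core. The forkhead motif GTAAACA, searched on both strands, occurred in neither window and in 3.65% of all windows. The share of G and C was 52.0% in Tek and 60.3% in Tie1, beside a median of 52.7% over all windows. These matches describe letters only.

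Listed totals ranged from 28128866 to 43219831 counts in Brain, from 12325658 to 36157140 in Retina and from 713733 to 10031274 in Choroid, so low values were least precise in Choroid. The ribosomal RNA precursor Rn45s took 13.03% of the counts of Choroid Positive replicate 2, the smallest library, and between 0.0657% and 1.09% elsewhere. The label of the pull-down was checked on 10 pan-endothelial genes (Cdh5, Pecam1, Cldn5, Erg, Emcn, Esam, Egfl7, Eng, Robo4 and Flt1), all of which were higher in Positive in each tissue. Their summed share of counts went from 0.0158–0.0186% to 0.510–0.548% in Brain, from 0.00933–0.0117% to 0.250–0.490% in Retina and from 0.166–0.281% to 1.21–1.64% in Choroid. Retina Positive replicate 3, at 0.490%, stood apart from replicates 1 and 2, at 0.250% and 0.253%. RNA of other cells remained in Positive. In Retina, 5 photoreceptor genes, of which 1 fell (10.8% of all genes did), held 3.12–3.74% of counts in Input and 2.50–4.26% in Positive. In Brain, 5 neuronal genes, which all fell (39.7% of all genes did), went from 0.513–0.525% to 0.211–0.244%. A level in Positive is thus not that of endothelial cells alone, and the part of other cells in it was not tested.

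Levels are counts normalised to library size (CPM, with TMM scaling within a tissue unless stated), and changes are log2 fold changes with their standard error (SE). They were tested over all listed genes with edgeR's quasi-likelihood test and Benjamini-Hochberg adjustment, with a threshold of 0.05. All 5 genes rose in Brain Positive over Brain Input, where 38.3% of all genes were called higher and 78.1% in either direction. All 4 rose in Retina (15.3% called higher, 26.1% in either direction). In Choroid Tek, Tie1 and Ptprb rose (16.3% called higher, 20.2% lower, 36.6% in all). Angpt2 was higher and Angpt1 lower in Choroid Positive. Each was listed there only through the fraction where it was higher, so both are descriptions with no test. In none of the 14 gene and tissue combinations did the 2 fractions overlap, a pattern seen in the higher direction in 40.0% of Brain, 22.7% of Retina and 22.9% of Choroid genes, and in the lower direction in 26.8% of Choroid genes. For Angpt1 and Angpt2 in Choroid the listing favoured this pattern.

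**Figure D1:**
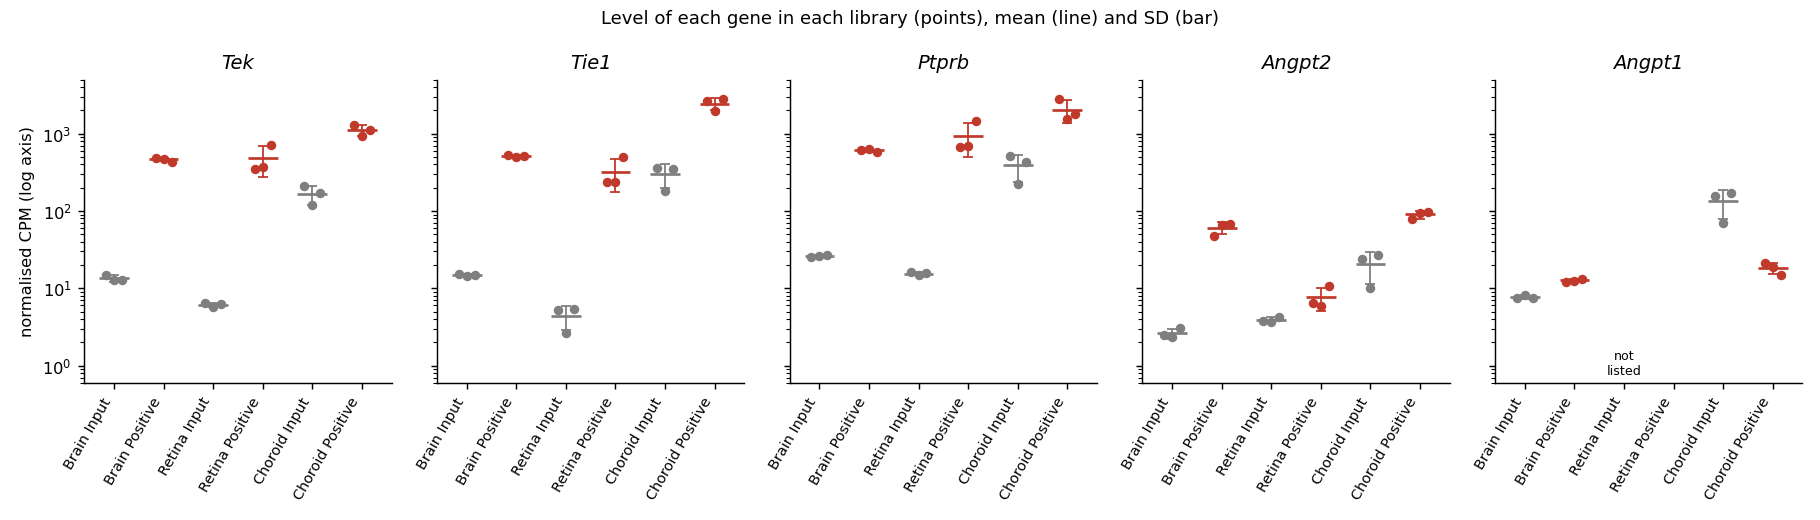
Normalised CPM (log axis) of each gene in each library, scaled over all 18 libraries, or over the 12 Brain and Choroid libraries for Angpt1; grey points are Input, red points Positive, lines are means and bars are SD (n = 3). Positive points lie above the Input points of the same tissue in every panel except Angpt1 in Choroid.

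Angpt1 was the one member whose direction differed between tissues. In Brain Input it measured 5.93, 6.36 and 5.86 CPM, and in Brain Positive 11.7, 12.0 and 12.7 CPM. The fractions did not overlap, and the 3 Positive libraries were about equally far above Input, 2.00-fold on average (log2 fold change 1.00, SE 0.12, adjusted p = 2.34e-05). Angpt1 stood at rank 2461 of 13957 genes by fold change, far behind the other 4 members, which ranked between 40 and 174.

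In Choroid Input, Angpt1 measured 150, 68.7 and 161 CPM, and in Choroid Positive 19.7, 17.5 and 13.9 CPM. Every Positive library was below every Input library, and Input replicate 2 was the lowest of the Inputs. Angpt1 was 7.43-fold lower in Positive, and fell by 2.89 on the log2 scale (SE 0.36). Because Angpt1 was listed in Choroid through Input alone, this fall is given as a description with no test. The Positive values rest on few counts, 53.8, 11.1 and 24.5 raw counts in the 3 libraries. The fall in Choroid and the rise in Brain differed by -3.59 (SE 0.41) in a joint fit of the 12 Brain and Choroid libraries. The listing through Input favours a difference in this direction, so it is a description too.

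Markers of fibroblasts, which are not endothelial, moved in the same direction as Angpt1 in both tissues, and those of mural cells did so in Choroid. All 6 listed fibroblast genes fell in Choroid, where their summed share went from 0.325–0.419% of counts in Input to 0.0402–0.0638% in Positive, and 8 of 11 mural genes fell, none rising (0.0809–0.138% to 0.0243–0.0357%). In Brain, all 7 fibroblast genes rose (0.0130–0.0140% to 0.151–0.227%), while of 11 mural genes 5 rose and 5 fell. The mural share in Brain rose from 0.0198–0.0216% to 0.127–0.170%, most of it Vtn (104 to 1234 CPM), and the mural genes Rgs5, Kcnj8, Abcc9, Notch3 and Cspg4 were the 5 that fell. The fall in Choroid was not particular to these cells. There 4 of 4 pigment epithelium genes (1.42–2.01% to 0.0965–0.134%), 5 of 5 melanocyte genes and 4 of 5 macrophage and microglia genes fell. Of 3 neuronal genes in Choroid, 2 fell and 1 rose. Over all genes 20.2% were called lower in Choroid and 38.3% higher in Brain. The part of any of these cells in the Angpt1 values was not tested.

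Angpt2, the endothelial ligand, rose strongly in Brain. It measured 1.95, 1.83 and 2.45 CPM in Brain Input and 42.8, 58.4 and 60.2 CPM in Brain Positive. The groups were far apart, with Positive replicate 1 the lowest of its group. The rise was 25.8-fold (log2 fold change 4.69, SE 0.17, adjusted p = 5.31e-09), close to that of Ptprb.

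In Retina the Angpt2 rise was small. Retina Input held 2.81, 2.71 and 3.24 CPM and Retina Positive 5.43, 5.05 and 9.43 CPM. The groups did not overlap, but only replicate 3, the library with the highest endothelial share, was well above Input. The rise was 2.30-fold (log2 fold change 1.20, SE 0.28, adjusted p = 0.0165), and the call was lost without Retina Input replicate 1 (adjusted p = 0.0660) or replicate 2 (adjusted p = 0.0752). While the endothelial receptor genes rose by 85.9-fold and more in the same libraries, Angpt2 stood at rank 937 of 12827 genes.

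The smaller Angpt2 change in Retina than in Brain was tested directly. The retinal change was lower by -3.54 on the log2 scale (SE 0.39, adjusted p = 3.34e-06), a factor of 11.6. Horizontal cells, retinal interneurons reported to express Angpt2, had a summed marker share of 0.0172–0.0183% in Retina Input and 0.0152–0.0170% in Retina Positive. Of their 4 listed markers (Lhx1, Onecut2, Calb1 and Prox1) 2 fell and none rose, beside 10.8% of all Retina genes called lower and 15.3% higher. The part of these cells in the Angpt2 values was not tested.

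In Choroid, Angpt2 measured 22.5, 9.81 and 25.5 CPM in Input and 73.1, 87.5 and 91.02 CPM in Positive. All Positive libraries were above all Inputs, and Input replicate 2 was again the lowest. Angpt2 was 4.21-fold higher in Positive (log2 fold change 2.07, SE 0.35). Because Angpt2 was listed in Choroid through Positive alone, this rise is given as a description with no test. Angpt2 rose less than in Brain (difference -2.48, SE 0.39, adjusted p = 4.05e-05). Against Retina the change was larger by 1.06 (SE 0.40, adjusted p = 0.0379), a call that was lost with DESeq2 size factors (adjusted p = 0.0547) and with upper-quartile scaling (adjusted p = 0.0943). The listing through Positive favours a difference in this direction, so that call is not read as a test.

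Tek, the Tie2 receptor gene, was among the genes that rose most. It measured 11.9, 10.0 and 10.3 CPM in Brain Input and 436, 418 and 381 CPM in Brain Positive. Both groups were tight, and the 38.5-fold rise (log2 fold change 5.27, SE 0.097, adjusted p = 1.25e-10) put Tek at rank 40 of the Brain genes. In Retina, Tek went from 4.79, 4.22 and 4.69 CPM to 292, 317 and 640 CPM. Positive replicate 3 was about as far above the other Positives as its endothelial share was, and Tek ranked 9 of 12827 genes with a 91.1-fold rise (log2 fold change 6.51, SE 0.36, adjusted p = 5.12e-05).

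In Choroid the Tek level was high already in Input. It measured 197, 114 and 159 CPM in Input and 1221, 867 and 1046 CPM in Positive. The groups did not overlap, and replicate 2 was the lowest in both. Tek rose 6.66-fold (log2 fold change 2.74, SE 0.25, adjusted p = 9.06e-06). The Tek change was larger in Retina than in Brain by 1.18 (SE 0.34, adjusted p = 0.0133), smaller in Choroid than in Brain by -2.35 (SE 0.33, adjusted p = 1.31e-05) and smaller in Choroid than in Retina by -3.53 (SE 0.34, adjusted p = 3.96e-07).

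Tie1, the partner receptor, rose as much as Tek in Brain. It measured 12.2, 11.5 and 11.9 CPM in Brain Input and 468, 448 and 450 CPM in Brain Positive. The spread within groups was small, and the rise was 38.4-fold (log2 fold change 5.26, SE 0.071, adjusted p = 6.07e-11, rank 42). In Retina, Tie1 went from 3.86, 1.96 and 4.03 CPM to 199, 202 and 443 CPM. Input replicate 2 was low, Positive replicate 3 was high, and the rise was 85.9-fold (log2 fold change 6.43, SE 0.44, adjusted p = 6.75e-05, rank 13).

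Choroid Tie1 measured 342, 176 and 328 CPM in Input and 2432, 1823 and 2592 CPM in Positive. Replicate 2 was the lowest library of both fractions, and no Input reached a Positive. The 8.07-fold rise (log2 fold change 3.01, SE 0.29, adjusted p = 1.32e-05) was the largest of the 5 genes in this tissue, at rank 22 of 7569. The Tie1 change was smaller in Choroid than in Brain by -2.08 (SE 0.41, adjusted p = 3.61e-04) and than in Retina by -3.17 (SE 0.43, adjusted p = 1.21e-05). Between Retina and Brain it differed by 1.10 (SE 0.42, adjusted p = 0.0578), which missed the threshold. With the replicate number as a block the same difference was 1.04 (adjusted p = 0.0101).

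Ptprb, the phosphatase gene, followed the receptor genes. It measured 20.3, 20.5 and 21.6 CPM in Brain Input and 546, 561 and 512 CPM in Brain Positive. The libraries of each group lay close together, and Ptprb rose 25.9-fold (log2 fold change 4.70, SE 0.073, adjusted p = 9.10e-11, rank 171). In Retina it went from 11.9, 10.9 and 11.7 CPM to 570, 587 and 1311 CPM. As for Tek and Tie1, Positive replicate 3 was the high library, and the rise was 71.3-fold (log2 fold change 6.16, SE 0.38, adjusted p = 5.12e-05, rank 37).

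Ptprb in Choroid measured 477, 213 and 407 CPM in Input and 2589, 1448 and 1669 CPM in Positive. Positive replicate 1 was the highest library, and the fractions did not overlap. The rise was 5.20-fold (log2 fold change 2.38, SE 0.33, adjusted p = 1.30e-04). The Ptprb change was larger in Retina than in Brain by 1.39 (SE 0.41, adjusted p = 0.0167) and smaller in Choroid than in Brain by -2.15 (SE 0.41, adjusted p = 3.10e-04) and than in Retina by -3.54 (SE 0.42, adjusted p = 3.71e-06).

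Counted together, 3 of the 4 genes tested differed in their change between Retina and Brain, beside 29.8% of all 7270 genes shared by the tables. The change of all 5 was lower in Choroid than in Brain (30.5% of genes called lower and 51.8% in either direction in the 18-library fit, 25.7% and 48.1% in the 12-library fit used for Angpt1). Between Choroid and Retina all 4 differed (45.0%), with Tek, Tie1 and Ptprb lower and Angpt2 higher in Choroid. The median change of the 10 pan-endothelial genes was likewise largest in Retina (6.20), then Brain (5.20) and Choroid (2.83). That order was thus not particular to Tek, Tie1 and Ptprb. The listing of Angpt1 and Angpt2 through 1 fraction in Choroid favoured the Angpt1 call against Brain and the Angpt2 call against Retina. Those calls are therefore not free ones. The 3 comparisons share their groups, so they are not independent of each other. Scaling bears on the direction of such calls over all genes. Between Retina and Brain 802 genes were called higher and 1368 lower, but 1402 and 885 with DESeq2 size factors, which moved the median of all genes by 0.22 log2. Between Choroid and Retina the split was 1581 and 1691, but 887 and 2176 with upper-quartile scaling, a shift of -0.24. The member differences of 1.06 to 1.39 are to be read against shifts of that size.

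**Figure D2:**
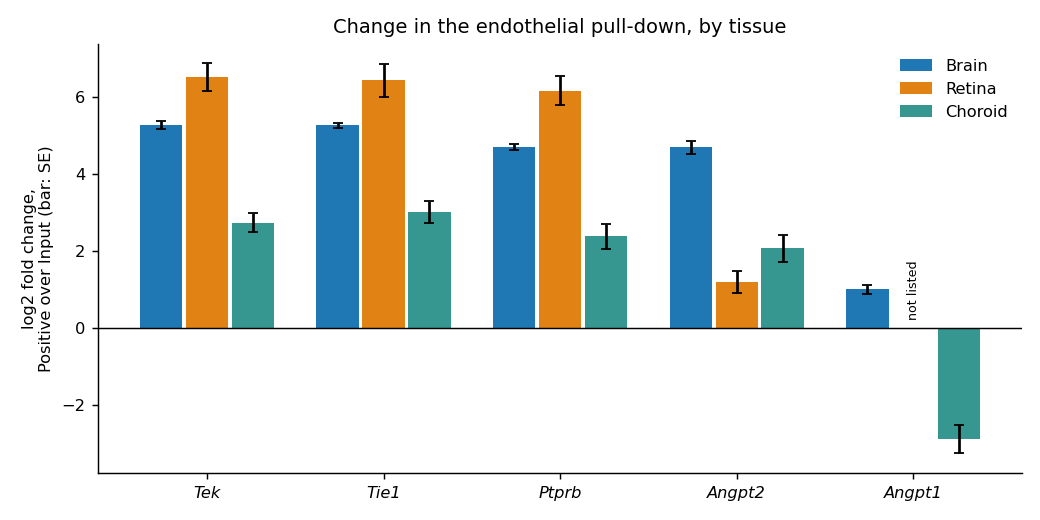
Log2 fold change of Positive over Input (bars; error bars are SE, 3 libraries per group) for each gene in Brain, Retina and Choroid. Tek, Tie1 and Ptprb are highest in Retina and lowest in Choroid (the Tie1 difference between Retina and Brain missed the threshold), Angpt2 is highest in Brain at 4.69, and Angpt1 is the only bar below 0, at -2.89 in Choroid.

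Levels between genes were compared per kilobase of exon. In Brain Positive, Tie1 held 100.0 ± 2.46 and Tek 87.5 ± 5.89 CPM per kilobase (SD, n = 3), Ptprb held 42.0 ± 1.96, Angpt2 held 15.1 ± 2.68 and Angpt1 held 2.85 ± 0.125. In Choroid Positive, the order was the same, with Tie1 at 502 ± 89.0, Tek at 222 ± 37.6, Ptprb at 148 ± 47.1, Angpt2 at 23.6 ± 2.66 and Angpt1 at 4.00 ± 0.691 CPM per kilobase. In Retina Positive, Tek led with 88.5 ± 41.3, Ptprb held 64.0 ± 32.9, Tie1 held 61.8 ± 30.8 and Angpt2 1.86 ± 0.682 CPM per kilobase, with the wide SD set by replicate 3. Among the choroidal Input levels, Angpt1 (29.8 ± 11.9 CPM per kilobase) was close to Tek (33.3 ± 8.76) and Ptprb (28.4 ± 10.6), whereas Angpt2 held 5.41 ± 2.33.

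The 6 groups were then put in order by the level of each gene, with scaling over all 18 libraries and a test of each pair of neighbours, which called between 30.6% and 70.4% of all genes. For Tek the highest mean was in Choroid Positive (1123 CPM), followed by Retina Positive (479) and Brain Positive (465), whose difference did not pass (adjusted p = 0.876). Choroid Input (166), Brain Input (13.5) and Retina Input (6.12) followed, each step passing the test. For Tie1, Choroid Positive (2454 CPM) was above Brain Positive (514), which was above Retina Positive (323, adjusted p = 0.0457, and 0.0782 with DESeq2 size factors). Retina Positive and Choroid Input (300.0) of Tie1 did not differ beyond their spread (adjusted p = 0.767), and Brain Input (14.97) and Retina Input (4.40) lay below.

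Ptprb led in Choroid Positive (2045 CPM), ahead of Retina Positive (945). Its next neighbours did not pass, Retina against Brain Positive (610) at adjusted p = 0.0624 (0.0355 with DESeq2 size factors) and Brain Positive against Choroid Input (389) at 0.0655. Brain Input (26.2) and Retina Input (15.5) closed the order and differed from each other (adjusted p = 0.0339). Angpt2 was ordered differently from these 3 genes. Its Choroid Positive (90.2 CPM) and Brain Positive (60.8) levels led without passing the test between them (adjusted p = 0.0761, and 0.0228 with DESeq2 size factors), and even Choroid Input (20.5) was above Retina Positive (7.65). Retina Positive was above Retina Input (3.91, adjusted p = 0.0119), and the step from there to Brain Input (2.62) did not pass (adjusted p = 0.0935). For Angpt1, over 12 libraries, Choroid Input (134 CPM) was highest, Choroid Positive (18.3) and Brain Positive (12.7) did not differ beyond their spread (adjusted p = 0.168), and Brain Input (7.70) was lowest (adjusted p = 0.0261 against Brain Positive).

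The Positive fractions were also compared in a fit of their 9 libraries alone, or 6 for Angpt1, with its own scaling and spread, so that its calls can differ from those of the 18-library order above. In this fit 4 of 5 genes were higher in Choroid than in Brain, where 28.9% of genes were called higher (25.8% in the fit used for Angpt1). Angpt2 was listed in Choroid through its Positive libraries alone, which favours a higher value there. The log2 differences were 2.42 for Tie1 (SE 0.29), 1.91 for Ptprb (SE 0.32), 1.44 for Tek (SE 0.27) and 0.72 for Angpt2 (SE 0.24, adjusted p = 0.0244; it was 0.56 and missed the threshold over 18 libraries), while Angpt1 differed by 0.54 (SE 0.25, adjusted p = 0.107). All 4 genes tested were higher in Choroid than in Retina Positive, beside 31.4% of genes, by 3.55 for Angpt2, 2.95 for Tie1, 1.26 for Tek and 1.14 for Ptprb. Between Retina and Brain Positive only Angpt2 passed in this fit (57.1% of genes called), lower in Retina by -2.83 (SE 0.24, adjusted p = 6.47e-06). Tek differed there by 0.18 (adjusted p = 0.572), Tie1 by -0.53 (adjusted p = 0.125, where the 18-library fit put Brain higher by 0.67 and passed) and Ptprb by 0.77 (adjusted p = 0.0559). Without Retina Positive replicate 3 the Tek difference turned to -0.30 (adjusted p = 0.107) and Tie1 passed at -1.05 (adjusted p = 3.91e-04). Ptprb passed without Retina Positive replicate 1 (0.91, adjusted p = 0.0436) or 2 (0.91, adjusted p = 0.0467), and also without Choroid Positive replicate 1 or 2, which enter only through the shared spread. The Angpt2 difference between Choroid and Brain lost its call without any 1 of the Brain Positive libraries or without Choroid Positive replicate 3 (adjusted p between 0.0542 and 0.132). Angpt1 passed between Choroid and Brain without Choroid Positive replicate 3 (0.68, adjusted p = 0.0495). The summed endothelial share differed between these fractions as given above, and its part in the differences was not tested.

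In the Inputs, which hold the whole tissue, all 5 genes were higher in Choroid than in Brain (36.6% of genes called higher, 35.2% in the fit used for Angpt1). Angpt1 was listed in Choroid through its Input libraries alone, which favours a higher value there. The log2 differences were 4.34 for Tie1, 4.13 for Angpt1, 3.90 for Ptprb, 3.63 for Tek and 3.03 for Angpt2. Choroid Input was above Retina Input by 6.11 for Tie1, 4.77 for Tek, 4.66 for Ptprb and 2.46 for Angpt2, where 34.8% of genes were called higher. Over all genes that comparison split into 2533 higher and 3251 lower, but 2997 and 2553 with upper-quartile scaling. Retina Input was below Brain Input for Tie1 (-1.77), Tek (-1.14) and Ptprb (-0.76, adjusted p = 0.0141), with 32.8% of genes called lower, whereas Angpt2 differed by 0.57 (adjusted p = 0.128, and 0.0306 without Choroid Input replicate 2).

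To set the members against the endothelial content of each library, the mean log2 CPM of the 10 pan-endothelial genes was subtracted from the log2 CPM of the member. With 3 libraries against 3, the smallest p that an exact two-sided permutation test allows is 0.1, so none of the 40 such comparisons could pass, and values with their SD are given. Among the Positive fractions, the Tek value on this log2 scale was 0.79 ± 0.026 in Retina, 0.00 ± 0.065 in Brain and -0.21 ± 0.18 in Choroid (SD, n = 3). Retina was apart from both other tissues, and Brain and Choroid overlapped. The 3 Retina Positive libraries, which differed about as much in Tek CPM as in endothelial share, were thus close to each other on the relative scale.

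Tie1 was highest in Choroid Positive (0.91 ± 0.17), with 0.15 ± 0.020 in Brain Positive and 0.21 ± 0.084 in Retina Positive. Here Choroid was apart and Brain and Retina overlapped. Ptprb was highest in Retina Positive (1.75 ± 0.096), with 0.39 ± 0.052 in Brain and 0.62 ± 0.39 in Choroid, so against the 10 genes Retina was apart for the phosphatase gene as for Tek. The reference matters for these values: the Retina minus Brain difference of Tek was 0.79 against the 10 genes, 0.36 against Cdh5 alone and 0.44 against Pecam1 alone, and that of Ptprb was 1.36, 0.93 and 1.01. The Choroid minus Brain difference of Tie1 was 0.76, 0.43 and 1.30 in the same order. For Tek the Choroid minus Brain difference changed sign with the reference (-0.21, -0.54 and 0.32). The Choroid minus Retina difference of Tek was -1.001, -0.90 and -0.11, and that of Ptprb was -1.13, -1.03 and -0.24, so with Pecam1 as the reference Choroid and Retina were close for both genes.

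Relative to the same endothelial genes, the ligand genes were lower in Positive than in Input wherever the fractions did not overlap. Angpt1 went from -1.01 ± 0.11 in Brain Input to -5.08 ± 0.096 in Brain Positive, 16.8-fold lower, and from -0.53 ± 0.33 to -6.10 ± 0.30 in Choroid, 47.6-fold lower. Thus Angpt1 rose 2.00-fold in absolute CPM in Brain but by far less than the endothelial genes did. Angpt2 in Retina went from -0.68 ± 0.12 in Input to -5.14 ± 0.15 in Positive, 21.9-fold lower. In Brain the Angpt2 values were -2.55 ± 0.19 and -2.95 ± 0.30, 1.31-fold lower without overlap, and in Choroid they were -3.25 ± 0.39 and -3.84 ± 0.21 and overlapped. Retina Input was therefore the group with the highest Angpt2 per unit of endothelial RNA, and Retina Positive the group with the lowest.

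**Figure D3:**
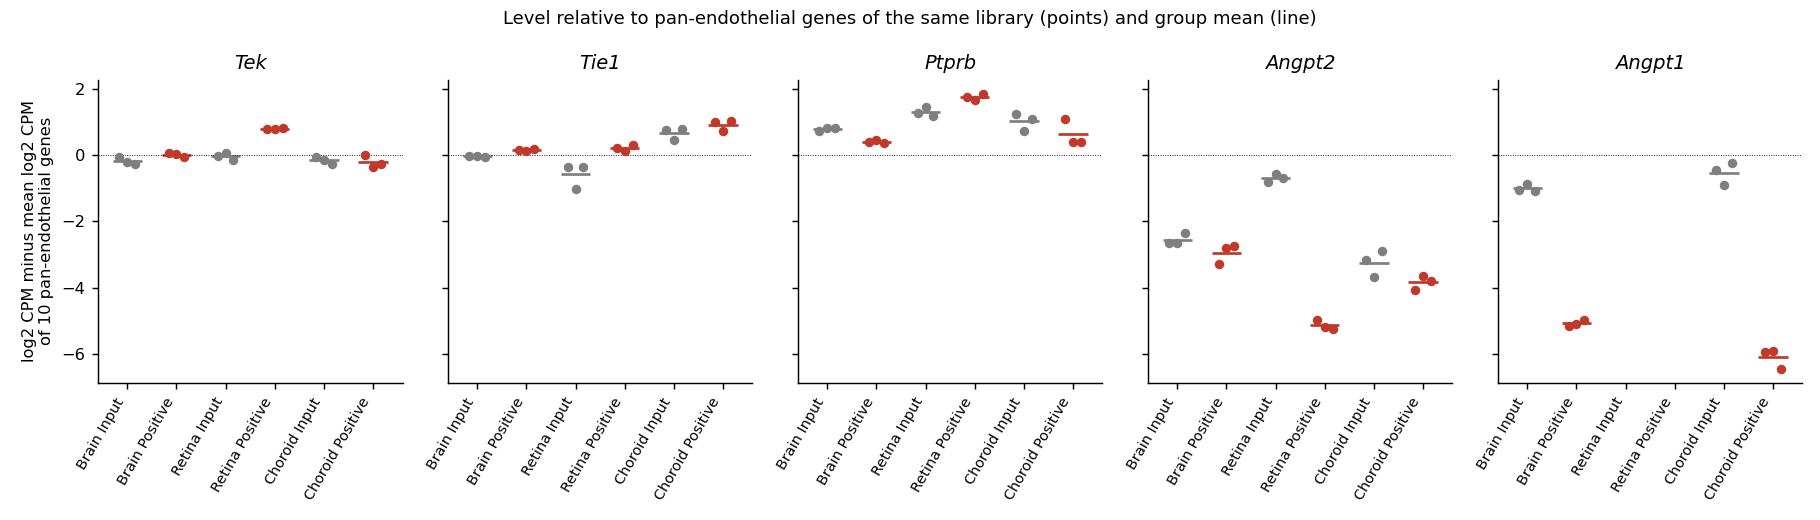
Log2 CPM of each gene minus the mean log2 CPM of 10 pan-endothelial genes of the same library; points are libraries (grey Input, red Positive) and lines are group means. Tek, Tie1 and Ptprb stay within about 2 log2 units of the reference in all groups, Angpt2 drops from -0.68 to -5.14 in Retina, and Angpt1 drops in Brain and Choroid.

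Ratios of the counts of 2 members within a library do not depend on scaling, and their change between groups does not depend on gene length. The ratio of Tie1 to Tek counts was 1.07 to 1.18 in Brain Positive, 0.637 to 0.692 in Retina Positive and 1.99 to 2.48 in Choroid Positive. These 3 ranges were apart from each other, and the tissues were in the same order in the Inputs, at 1.03 to 1.16, 0.467 to 0.854 and 1.54 to 2.07. In Positive the ratio was 1.66-fold lower in Retina than in Brain and 1.97-fold higher in Choroid than in Brain (exact two-sided p = 0.1 for each, the smallest that 3 against 3 allows, over 20 comparisons of ratios between tissues). Between Positive and Input the Tie1 to Tek ratio differed by 0.09 on the log2 scale over all 18 libraries (exact permutation within tissues, p = 0.440, also 0.440 after adjustment over 4 ratios). By tissue it differed by -0.0029 in Brain, -0.032 in Retina and 0.30 in Choroid. Within the pairs of Input and Positive from 1 homogenate it was higher in Positive in all 3 Choroid pairs, by 0.19, 0.45 and 0.26, and in 6 of 9 pairs over the 3 tissues (exact test over sign changes within pairs, a test added after the data were seen, p = 0.359, the same after adjustment over 4 ratios).

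The ratio of Ptprb to Tek was lower in Positive than in Input in every tissue, by -0.57 in Brain, -0.37 in Retina and -0.34 in Choroid on the log2 scale (mean -0.43, exact p = 5e-04, adjusted p = 0.0015). In Brain and Retina the 2 fractions did not overlap, with 1.71 to 2.11 in Brain Input against 1.25 to 1.34 in Brain Positive, and 2.49 to 2.59 against 1.85 to 2.05 in Retina. In Choroid the groups overlapped, with 1.86 to 2.56 against 1.60 to 2.12, but within each of the 3 pairs Positive was the lower, by -0.19, -0.16 and -0.68 on the log2 scale. Over the 3 tissues the ratio was lower in Positive in 9 of 9 pairs (exact test over sign changes, p = 0.00391, adjusted p = 0.0156). The ratio of Angpt2 to Tek was lower in Positive by -0.58 in Brain, -5.28 in Retina and -0.54 in Choroid (mean -2.13, exact p = 7.5e-04, adjusted p = 0.0015), and in 8 of 9 pairs, Choroid pair 2 being higher (exact test over sign changes, p = 0.00781, adjusted p = 0.0156). In Retina it went from 0.587–0.685 to 0.0148–0.0187 in counts.

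The 2 ligand genes were set against each other within libraries. In Brain the ratio of Angpt2 to Angpt1 counts was 0.290 to 0.417 in Input and 3.66 to 4.85 in Positive. In Choroid it was 0.146 to 0.158 in Input and 3.69 to 6.30 in Positive. Angpt1 counts thus exceeded Angpt2 counts in all 6 Input libraries, and Angpt2 counts exceeded Angpt1 counts in all 6 Positive libraries. The exon lengths of the 2 genes, 4260 bases for Angpt1 and 3560 for Angpt2, differ by less than any of these ratios. The log2 change in Brain, where both genes reached the deposited minimum in both fractions, was 3.68 (exact two-sided p = 0.1, the smallest that 3 against 3 allows). In Choroid it was 4.99, but there Angpt1 was listed through Input alone and Angpt2 through Positive alone, which favours a change in this direction, so the Choroid ratio is given as a description with no test. In Positive the Brain and Choroid ratios overlapped.

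**Figure D4:**
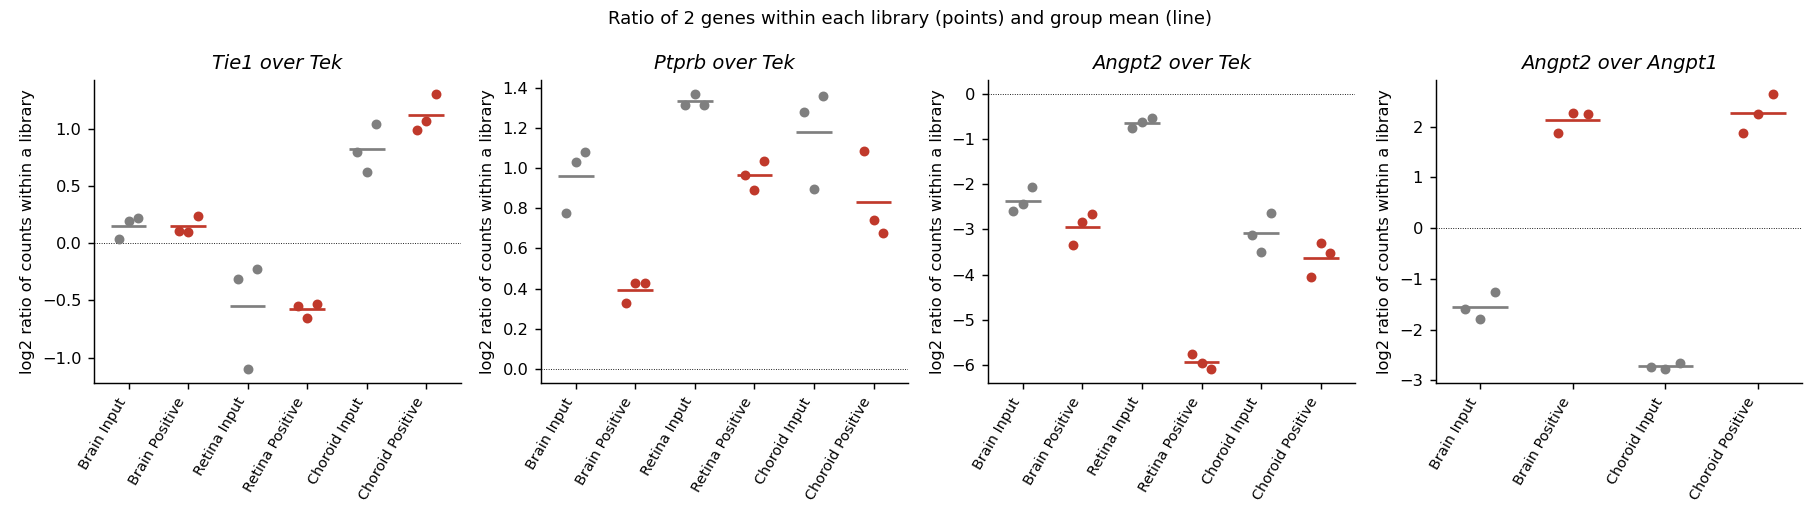
Log2 ratio of the counts of 2 genes within each library (points; grey Input, red Positive) with group means (lines); Angpt1 was not analysed in Retina. The Tie1 over Tek ratio separates the 3 tissues in both fractions, and the Angpt2 over Angpt1 ratio crosses 0 between Input and Positive in Brain and Choroid.

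Genes most alike to each member were taken by Pearson correlation of log2 CPM over the 18 libraries, among the 3588 shared genes with the higher mean levels (the median or more). The libraries share tissue and fraction, so the values describe the group pattern. Most like Tek were Pecam1 (r = 0.997), a junctional adhesion molecule, Ptprb (0.995), Gpr116, Cdh5 and Vwf. Most like Tie1 were Eng (0.997), a TGF-beta co-receptor of endothelium, Cdh5, Acvrl1, Tm4sf1 and Sdpr, with Tek itself at r = 0.982. Ptprb was most like Tek, followed by Vwf, Cdh5, Pecam1 and Acvrl1. For Angpt2 the closest genes were Clic1 (r = 0.967), Srpr, Tln1, Leprot and Vamp3, with Tie1 at 0.874, Tek at 0.832 and Ptprb at 0.818. For Angpt1, over 12 libraries and 3683 genes, they were Sulf1 (0.985), Igfbp5, St13, Kat2b and Ctsd.

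Other genes that act with the angiopoietins and Tie receptors were followed in 11 lists of 64 symbols. Of those listed in Brain, 38 of 60 rose and 9 fell, with a median log2 fold change of 0.81 beside -0.02 over all genes. In Retina 27 of 52 rose and 2 fell (median 0.47 beside -0.03), and in Choroid 22 of 51 rose and 12 fell (median 0.61 beside -0.01). The lists include endothelial genes such as Cdh5 and Kdr, so a share above the 38.3%, 15.3% and 16.3% called higher over all genes describes that make-up too. The shares called lower over all genes were 39.7% in Brain, 10.8% in Retina and 20.2% in Choroid. The counts of each list below are to be read beside these shares. Some of the genes were listed in a tissue through 1 fraction alone, which favours a change towards that fraction.

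Among the factors reported to act on the Tie and Angpt2 genes, 6 of 7 rose in Brain, 5 of 7 in Retina and 4 of 7 in Choroid, where 1 fell. Ets1, an ETS factor of endothelium, rose by 4.46 in Brain, 5.61 in Retina and 2.07 in Choroid (log2 fold changes). Elf1, another ETS factor, rose by 2.51 and 1.08 in Brain and Retina, and its change of 0.82 in Choroid did not pass (adjusted p = 0.0751). Klf2, a flow-induced factor, rose by 5.35 in Brain and 6.19 in Retina. Gata2 led in Choroid with 2.79, and Hif1a, the oxygen-regulated factor, fell there by 1.25.

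Of the Foxo factors, Foxo1 rose in all 3 tissues, by 1.30 (SE 0.077) in Brain, 0.72 (SE 0.19) in Retina and 1.73 (SE 0.22) in Choroid, less than the receptor genes did. Foxo3 changed by 0.18 in Brain and -0.09 in Retina without passing. Of the Foxo target list, 2 of 8 rose and 2 fell in Brain, 1 of 7 rose in Retina and 2 of 4 fell in Choroid. Over all genes 38.3% were called higher and 39.7% lower in Brain, 15.3% higher in Retina and 20.2% lower in Choroid. Sesn1, a stress-response gene, rose by 0.81 in Brain and 0.42 in Retina, while Irs2, an adaptor of the insulin receptor, fell by 0.69 in Brain. Cdkn1b, a cell cycle inhibitor, rose by 0.25 in Brain and fell by 0.66 in Choroid.

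Of 9 genes of the PI3 kinase and Akt list, which act between Tie2 and Foxo1, 2 rose and 4 fell in Brain, 1 rose and 2 fell in Retina, and 1 rose and 1 fell in Choroid, counts to be read beside the shares called over all genes in each direction. Akt1 was the gene that rose most in each tissue, by 0.75, 0.56 and 0.82, and Pdpk1, the kinase that activates Akt, fell by 0.90 in Brain and 0.30 in Retina. Akt2 fell by 1.65 in Choroid. Of the adaptors that dock to Tie2, 6 of 7 rose in Brain, 3 of 6 in Retina and 1 of 4 in Choroid. Shc1 led in Brain with 3.33, Grb14 in Retina with 1.22 and Nck1 in Choroid with 1.09, and Grb2 passed in no tissue.

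The proteases that shed Tie receptors were mostly higher in Positive. Adam10 rose in all 3 tissues (1.00, 1.28 and 0.92), and Adam17 rose in Brain (1.73) and Retina (1.04) but did not pass in Choroid (0.61, adjusted p = 0.183). Mmp14, a membrane-bound metalloproteinase, rose by 2.27 in Brain and fell by 2.04 in Choroid. It was listed in Choroid through Input alone, with a mean of 38.9 CPM in Positive, so that fall is a description. The fibroblast genes given above moved in the same directions, and their part was not tested. Integrin subunits that bind angiopoietins split. Itga5 (2.65, 3.45 and 2.21) and Itgb1 (2.63, 2.18 and 1.24) rose in Brain, Retina and Choroid, whereas Itgav fell by 0.48 in Brain and by 3.15 in Choroid.

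The partners of Ptprb at endothelial junctions rose, 5 of 5 in Brain, 4 of 5 in Retina and 5 of 5 in Choroid. Cdh5, which encodes VE-cadherin, rose by 5.11, 6.63 and 2.94, Jup, which encodes plakoglobin, by 0.85, 1.31 and 2.72, and Kdr, the VEGF receptor, by 5.05 in Brain and 2.97 in Choroid. Kdr was the partner that did not pass in Retina (0.77, adjusted p = 0.0615). Of 7 junction effectors, 5 rose in Brain, 6 in Retina and 5 in Choroid, with Rap1b at 1.81, 1.05 and 1.43. Src, a kinase that acts on junctions, fell by 0.80 in Brain and by 2.33 in Choroid. Of the tip cell list, which marks sprouting endothelium, 3 of 5 rose and 1 fell in Brain, and 2 of 4 rose and 2 fell in Choroid. In Retina the 1 listed gene, Dll4, was higher, as its listing through Positive alone favours. Dll4 rose by 4.74 in Brain, 4.81 in Retina and 2.96 in Choroid. Esm1 rose by 4.27 in Brain and 3.17 in Choroid. The placental growth factor gene Pgf rose by 1.20 in Brain and fell by 3.44 in Choroid. Apln, which encodes the peptide apelin, fell by 0.45 in Brain, and the chemokine receptor gene Cxcr4 fell by 1.89 in Choroid. Svep1, an extracellular ligand reported for Tie1, rose by 0.46 in Brain and fell by 1.76 in Choroid. Dll4 in Retina and Esm1 in Brain were listed through Positive alone, and Src, Pgf and Svep1 in Choroid through Input alone. The listing favoured the direction of these changes, so they are given as descriptions.

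**Figure D5:**
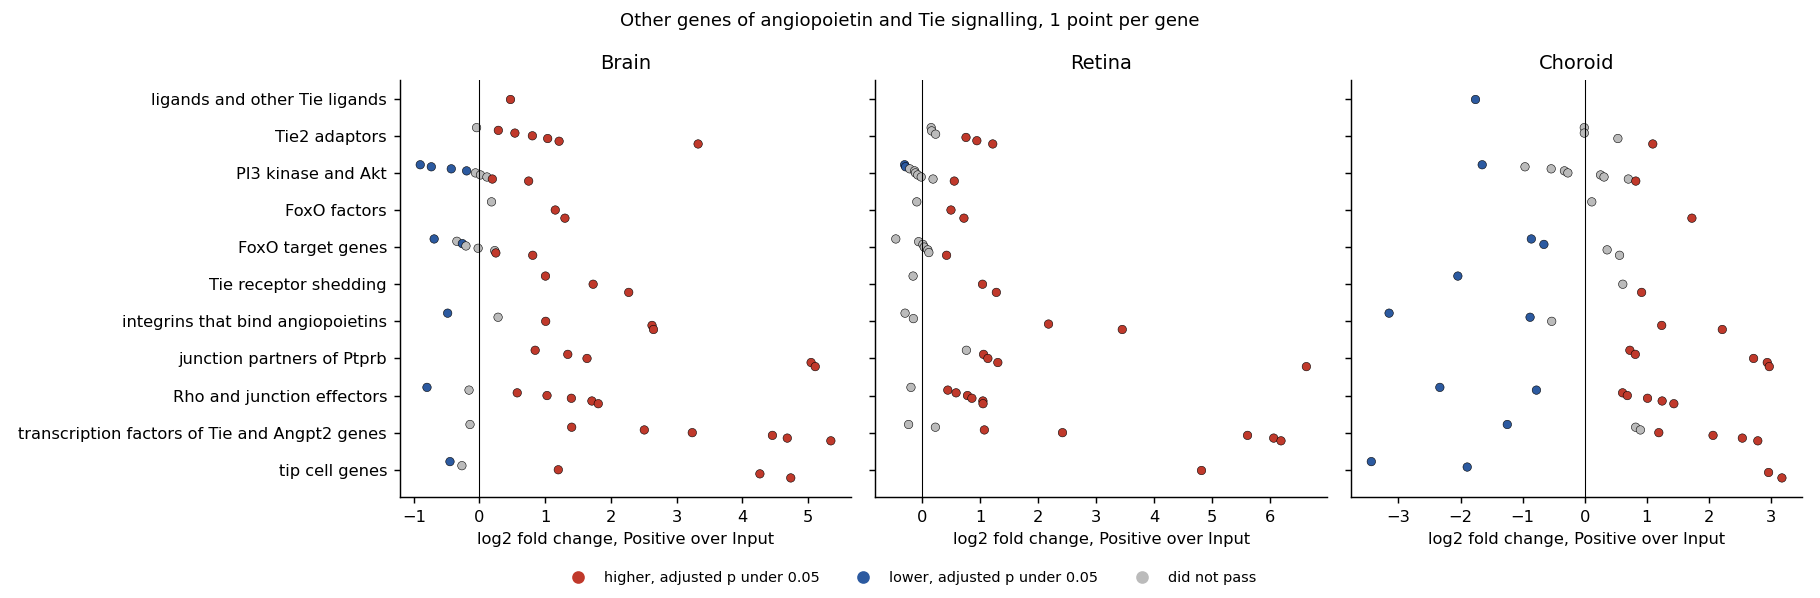
Log2 fold change of Positive over Input for 11 lists of genes that act with angiopoietins and Tie receptors, 1 point per listed gene and 1 panel per tissue; red points were higher, blue points lower and grey points did not pass the threshold of 0.05. The largest increases are Klf2 at 5.35 in Brain, Cdh5 at 6.63 in Retina and Esm1 at 3.17 in Choroid, and Choroid has 12 genes lower, Pgf at -3.44 the lowest. Pgf was listed in Choroid through Input alone, which favours a fall.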

How the data were processed

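Per the labels, 18 libraries were made with a directional kit, 3 from each fraction and tissue. The authors deposited 1 table per tissue. Its raw columns, per the file headers, hold fractional values, here called expected counts, and the authors' normalized columns are log2, used here only to recover the authors' scaling factors for an alternative. Build mm10 and DESeq come from the submitters' processing notes. For the aligner, the counter and its strand setting, nothing was given in the sources used here.

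Expected counts were rounded and each tissue was fitted with edgeR 4.0.16 (TMM scaling, quasi-likelihood test, Benjamini-Hochberg adjustment; a filterByExpr minimum of 10 left every gene in). Tissues were compared over the 7270 genes in all 3 tables, or 7461 genes in Brain and Choroid for Angpt1, across tables that had been filtered separately. Ratios and relative levels added 0.5 counts. DESeq2 1.42.0, other scalings, filters, a replicate block and leaving out each library were alternatives. The scripts were tested on simulated data.

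Per the labels, Input and Positive of 1 number come from 1 homogenate. The deviations of same-numbered libraries correlated at 0.00575 to 0.272, above 0.1 in 7 of 9 pairs.

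Members and gene lists were chosen with earlier results of these data known. The named genes were the 5 members, for each list the first 2 measured genes and those that rose and fell most, and the 5 genes most alike to each member. Exon lengths came from GENCODE M21, and promoter sequences from RefSeq on GRCm38.p6.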

Additional observations from a re-analysis of the deposited data

Results flagged for a closer look

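The change from Input to Positive differed between tissues, by a test of the difference itself, for 12 pairs of gene and tissues. The values are log2 differences with the edgeR quasi-likelihood test described above, and the 3 tissue comparisons share their groups. Between Retina and Brain, Angpt2 differed by -3.54, Ptprb by 1.39 and Tek by 1.18. Between Choroid and Brain, Angpt1 differed by -3.59, Angpt2 by -2.48, Tek by -2.35, Ptprb by -2.15 and Tie1 by -2.08. Between Choroid and Retina, Ptprb differed by -3.54, Tek by -3.53, Tie1 by -3.17 and Angpt2 by 1.06. The median change of the pan-endothelial genes had the same tissue order as the changes of Tek, Tie1 and Ptprb. In Choroid, Angpt1 was listed through Input alone and Angpt2 through Positive alone. The listing thus favoured the Angpt1 difference of -3.59 and the Angpt2 difference of 1.06, which are not read as tests. Groups of 3 libraries are too small for a search for single outlying samples.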

How the results depend on the processing

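Over all alternatives, 805 of 839 recomputed member fold changes kept their direction and their side of the threshold. That total includes the alternative with no filter, which repeated the main fits because the filter had removed no gene, so its rows could not differ. With the replicate block 1 of 53 member calls changed, that of Tie1 between Retina and Brain (1.04, adjusted p = 0.0101). The same difference passed with DESeq2 size factors (1.32), upper-quartile scaling (1.28), the filter at the median level (1.33) and the DESeq2 Wald test (1.31), and lay between 0.65 and 1.28 when single libraries were left out. The Angpt2 difference between Choroid and Retina did not pass with DESeq2 size factors (0.97) or upper-quartile scaling (0.84), and lay between 0.80 and 1.36, losing its call in 9 of 18 such fits, those without Brain Input replicate 1, any Retina Input replicate, Retina Positive replicate 1 or 2, Choroid Input replicate 2, or Choroid Positive replicate 2 or 3. The Angpt2 rise in Retina lay between 0.86 and 1.37. Testing the 4 ratios within pairs, an alternative chosen after seeing the data, changed no call. The ratio of Tie1 to Tek between fractions lay between -0.0032 and 0.14, reversed without Retina Input replicate 2. Tek between Retina and Brain Positive reversed to -0.30 without Retina Positive replicate 3, and the count of members called there was 1 to 2 (2 without any 1 Retina Positive replicate or without Choroid Positive replicate 1 or 2). The filter at the median level left low genes untested, so that 3 members were called in Brain, 3 between Choroid and Brain, and 2 in each Choroid comparison of Input.

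With Cdh5 and then Pecam1 as the endothelial reference, Positive differences of Retina minus Brain were 0.36 and 0.44 for Tek, -0.37 and -0.29 for Tie1, -2.62 and -2.54 for Angpt2 and 0.93 and 1.01 for Ptprb. Choroid minus Brain gave -0.54 and 0.32 for Tek, 0.43 and 1.30 for Tie1, -1.35 and -0.49 for Angpt1, -1.22 and -0.35 for Angpt2 and -0.11 and 0.76 for Ptprb. Choroid minus Retina gave -0.90 and -0.11 for Tek, 0.80 and 1.59 for Tie1, 1.40 and 2.19 for Angpt2 and -1.03 and -0.24 for Ptprb. The cause of these shifts was not tested. Choroid libraries are shallow, and Angpt1 there rests on 11.1 raw counts in Positive replicate 2.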
